A study of Mus musculus with 6 samples.

Results

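The pancreas of mice with caerulein-induced acute pancreatitis (AP mice, n = 2) was compared with the pancreas of saline-injected mice (saline mice, n = 2) across all 22556 listed genes. These 4 mice are all the caerulein-only and saline libraries among the 6 of the series, and they were chosen by their labels. All were wild type C57BL/6 mice labelled as post natal week 8. AP mice received repeated hourly intraperitoneal injections of caerulein, an analogue of the gut hormone cholecystokinin, and saline mice received saline on the same schedule, with the pancreas taken a day after the first injection. The other 2 libraries, from AP mice pretreated with polyI:C, are not compared here. They entered the estimate of the spread, the filter on low genes and the scaling factors. RNA of the whole organ was sequenced, so fewer cells of a type and less RNA per cell cannot be told apart in any result below.

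Acinar cells make up most of the pancreas and fill zymogen granules with digestive enzymes, which cholecystokinin releases through its receptor on the acinar cell. Too much of this stimulus blocks secretion, activates enzymes inside the cell and sets off inflammation. Injured acinar cells can switch off secretory genes and take on genes of duct cells, a state known as acinar-to-ductal metaplasia, from which the mouse gland usually recovers.

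Values are TPM, in which each gene's length-corrected share of the listed RNA is scaled to the same total in every library. The libraries carried pancreas markers in all 4 mice: Sycn, which encodes the granule protein syncollin, had 98750 and 86870 TPM in the saline mice and 31900 and 21350 TPM in the AP mice, and the insulin gene Ins1 had 648, 449, 656 and 515 TPM. Many digestive enzyme genes are not analysed here, and 14 of the 35 genes fixed as enzymes and granule cargo were listed. Depth was estimated at 3297086 to 3962053 reads over the listed genes in the saline mice and 6902814 to 8846196 in the AP mice, so low values are less certain in the saline mice. At these depths 1 read on a gene of median length was worth 0.117 to 0.266 TPM. The 2 mice of a group differed by a median of 0.29 (saline) and 0.19 (AP) on the log2 scale, and mice of different groups by 0.69 to 0.73. The mice with the same number in the labels are not known to be paired.

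A gene was called when its adjusted p was at most 0.05 and its change at least 2-fold, by limma on log2(TPM + 0.5). Of 16814 genes tested, 3053 (18.2%) were called higher and 677 (4.03%) lower in AP mice, so 81.8% of calls were higher. TPM sums to the same total in every library, and the 14 genes above 1% of any of the 4 mice held 30.1% and 27.5% of the total in saline mice but 18.7% and 16.4% in AP mice. Over all tested genes the log2 fold change had a median of 0.45. Scaling by the median of ratios, which sets the middle of the genes level, moved that median to 0.04 and left 1534 genes (9.12%) higher and 1248 (7.42%) lower, with 55.1% of calls higher. All 1534 were also called with TPM as deposited, as were 677 of the 1248. Every programme below is therefore given in both scalings, and "rose" or "fell" is used for genes called in both unless stated otherwise. A value after ± is the standard error of the log2 fold change, which is on the log2(TPM + 0.5) scale. In 8852 genes tested (52.6%) both AP mice were above both saline mice, and in 2760 (16.4%) both were below.

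**Figure D1:**
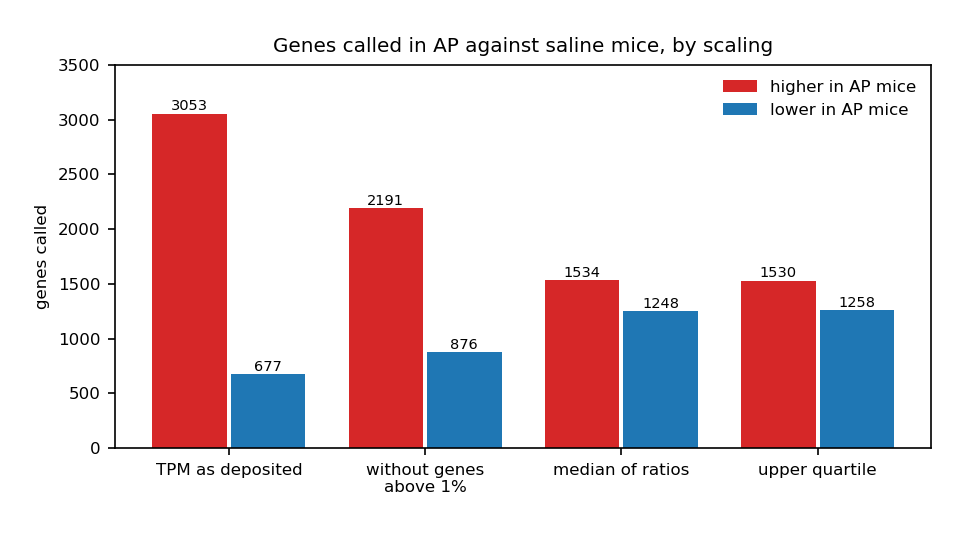
Numbers of genes called higher (red bars) and lower (blue bars) in AP than in saline mice, with 4 ways of scaling TPM on the horizontal axis and the count of genes on the vertical axis. Higher calls fall from 3053 as deposited to 1534 with median-of-ratios scaling, while lower calls go from 677 to 1248.

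Several of the 10 largest rises by the naming rule were in genes near 0 in saline mice. 4930539E08Rik had the largest, from 0 and 0.550 TPM in saline mice to 147 and 99.6 TPM in AP mice (7.39 ± 0.38). Anxa10, which encodes a calcium-binding annexin of the stomach lining, had 0.588 and 0 TPM in saline mice and 44.0 and 67.9 TPM in AP mice. Slc26a9, an epithelial chloride channel gene, had 0 and 0.134 TPM in saline mice and 24.7 and 31.3 TPM in AP mice. Kel, known for the Kell blood group protein and an endothelin-processing enzyme, went from 0.364 and 0 TPM to 46.7 and 48.0 TPM. The groups were far apart for the last 3 genes, with log2 fold changes of 6.22 ± 0.43, 5.65 ± 0.18 and 6.19 ± 0.25. S100a11, a calcium-binding S100 gene, had 10.7 and 1.65 TPM in saline mice and 314 and 248 TPM in AP mice, so the saline mice differed more from each other than the AP mice did. Among the most abundant genes, 1810009J06Rik, a trypsinogen-like gene on chromosome 6, stood below Sycn and Spink1 in AP mouse 1, with 21030 TPM there and 17030 TPM in AP mouse 2, against 1427 and 516 TPM in saline mice (4.46 ± 0.42, adjusted p = 0.00043). Reads of the trypsinogen genes can be shared among near-identical copies, so the division between its members is uncertain.

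The 10 largest falls included genes of unlike functions. Serpini2, which encodes pancpin, a serine protease inhibitor of the acinar cell, had 13300 and 14850 TPM in saline mice and 606 and 502 TPM in AP mice (-4.67 ± 0.17, adjusted p = 2.4e-05). Tmed11, of the p24 family of cargo carriers between endoplasmic reticulum (ER) and Golgi, had 3391 and 4056 TPM in saline mice and 148 and 133 TPM in AP mice (-4.72 ± 0.20). In both cases even the higher AP mouse was more than 20 times below the lower saline mouse. Ranbp3l fell from 62.8 and 67.7 TPM to 2.47 and 1.10 TPM, and Nxph2 from 25.2 and 19.9 TPM to 1.63 and 0.717 TPM. Ear14, a member of the eosinophil ribonuclease family, was at 24.9 and 23.4 TPM in saline mice and was listed at 0 in both AP mice. 5430419D17Rik, which fell from 209 and 181 TPM to 7.76 and 7.14 TPM, lies on chromosome 7 beside Cuzd1, the zymogen granule membrane gene, which itself fell from 12190 and 12620 TPM to 3704 and 3045 TPM (-1.89 ± 0.14).

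**Figure D2:**
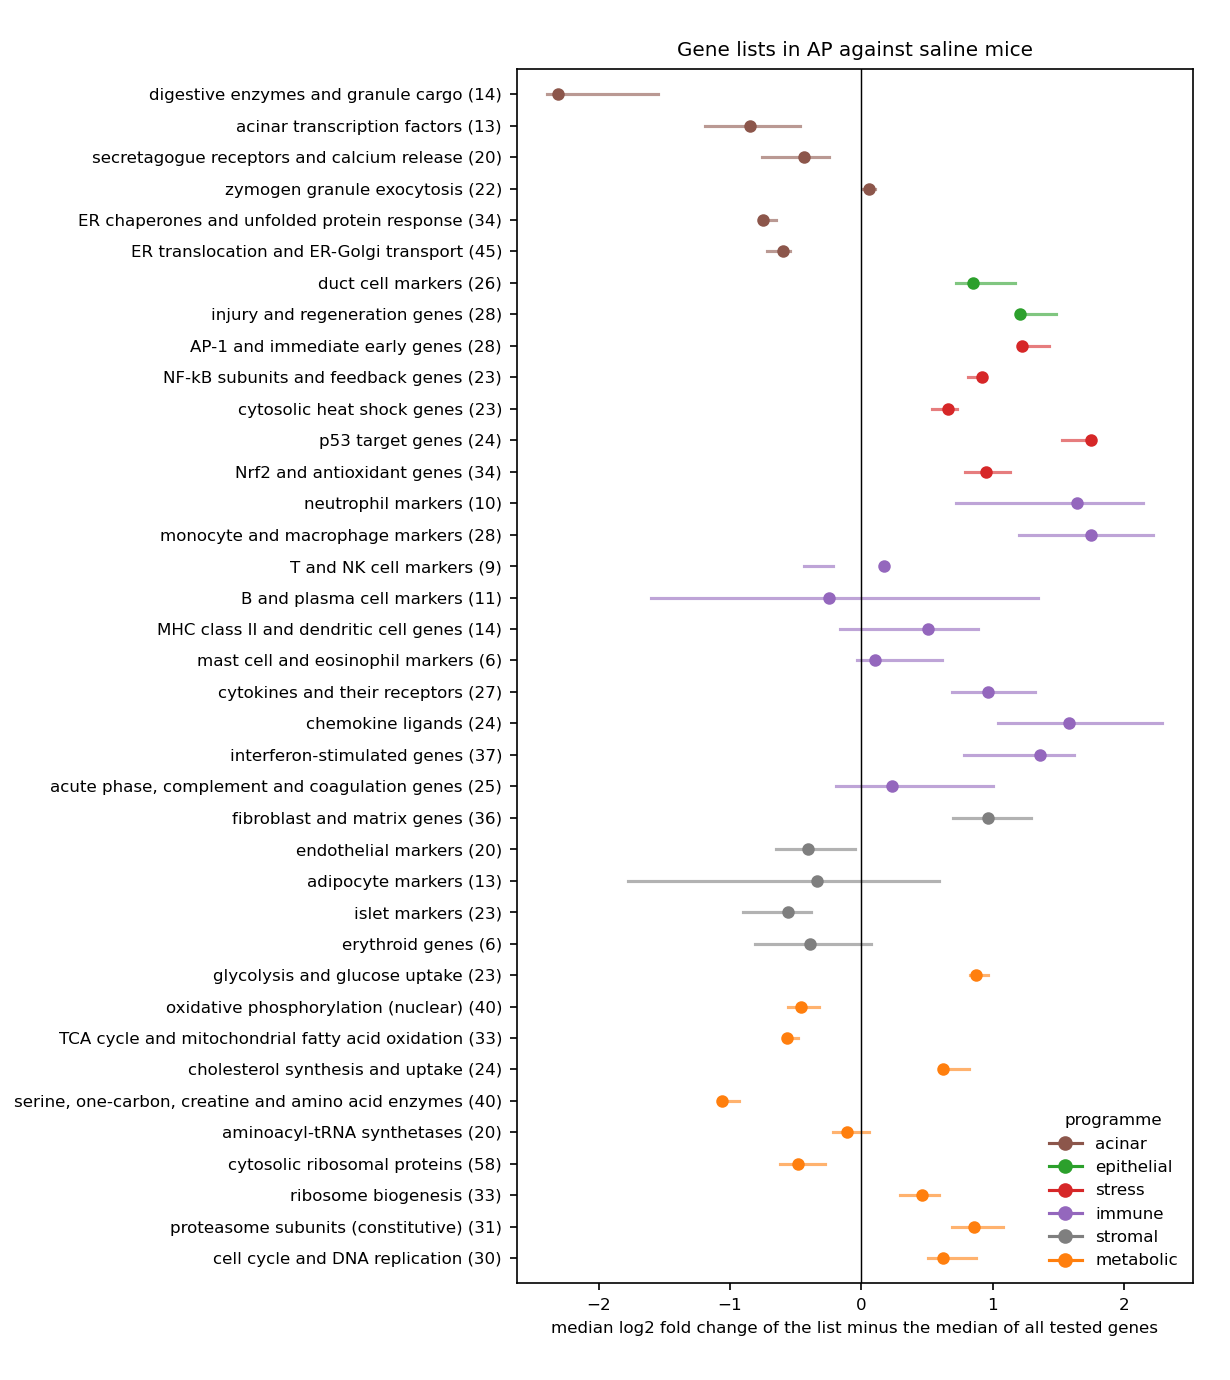
Median log2 fold change (AP against saline mice, TPM as deposited) of each of the 38 gene lists minus the median of all tested genes, on the horizontal axis, with the number of tested members in brackets. Points are list medians, coloured by programme, and lines span the medians computed for each of the 4 pairs of an AP and a saline mouse, so a point can lie outside its line. Digestive enzymes sit at -2.31 and amino acid enzymes at -1.06, while p53 targets and macrophage markers both sit at 1.75.

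In the acinar programme the granule cargo lost much of its share. The 14 listed enzyme and cargo genes together held 23.7% and 21.9% of TPM in saline mice and 9.70% and 6.95% in AP mice. Of these 14, 10 were called lower and 0 higher with TPM as deposited, and 11 and 0 after scaling, beside 4.03% and 7.42% of all genes called lower. The list median was -1.86, against 0.45 for all genes. Amy2a5, a pancreatic amylase gene, had 290 and 213 TPM in saline mice and 22.1 and 16.9 TPM in AP mice (-3.65 ± 0.18, adjusted p = 5.6e-05). Ctrc, the chymotrypsin C that degrades trypsinogen, had 1742 and 1677 TPM in saline mice and 194 and 167 TPM in AP mice (-3.25 ± 0.11). Tff2, a trefoil peptide, had 34940 and 36640 TPM and then 8229 and 7063 TPM (-2.23 ± 0.12). In each of the 3 genes the saline mice lay close together and well above both AP mice. Pla2g1b, the secreted phospholipase, also fell (-2.17 ± 0.30), from 2564 and 1300 TPM to 457 and 359 TPM.

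The cargo did not move as 1 block. The trypsinogen-like gene 1810009J06Rik, described above, is not in this list and so not in its counts or summed share. It rose, from 1427 and 516 TPM in saline mice to 21030 and 17030 TPM in AP mice (4.46). Spink1, the trypsin inhibitor of the granule, had 38300 and 40740 TPM in saline mice and 23570 and 19870 TPM in AP mice, a change of -0.87 ± 0.13 that was under 2-fold as deposited and past it after scaling (-1.32). Prss3, a trypsinogen gene, had 6211 and 4412 TPM in saline mice and 9093 and 3884 TPM in AP mice, so the groups overlapped (0.18 ± 0.48, adjusted p = 0.80). Prss1 also overlapped, with 213 and 113 TPM against 130 and 67.6 TPM. Without AP replicate 2, 6 of the 14 cargo genes were called lower in place of 10.

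Among 13 tested transcription factors of the acinar cell, 2 fell and Xbp1 was called higher only with TPM as deposited. Bhlha15 (Mist1), which scales up the secretory apparatus, had 391 and 326 TPM in saline mice and 53.6 and 46.4 TPM in AP mice (-2.83 ± 0.13, adjusted p = 3.9e-05). Rbpjl, the acinar partner of Ptf1a in the complex that drives enzyme genes, had 238 and 195 TPM in saline mice and 104 and 79.8 TPM in AP mice (-1.23 ± 0.15). The saline and AP mice did not overlap for either gene. Ptf1a itself had 44.5 and 40.8 TPM against 55.2 and 43.4 TPM, and Nr5a2, another regulator of enzyme genes, had 92.4 and 97 TPM against 107 and 105 TPM. Neither was called, with log2 fold changes of 0.20 and 0.16. Xbp1, the transcription factor of the unfolded protein response, had 798 and 850 TPM in saline mice and 1692 and 1631 TPM in AP mice. After scaling, 4 of the 13 were called lower, Gata4 and Gata6 among them.

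Genes of the stimulus itself fell in part. Cckar, the cholecystokinin receptor that caerulein binds, had 612 and 653 TPM in saline mice and 166 and 184 TPM in AP mice (-1.85 ± 0.11, adjusted p = 8.8e-05). Plcb1, a phospholipase C downstream of such receptors, had 26.9 and 25.9 TPM in saline mice and 6.31 and 6.69 TPM in AP mice (-1.94 ± 0.11). Atp2c2, a Golgi calcium pump, and Vipr1, a receptor for vasoactive intestinal peptide, fell as well (-1.66 ± 0.21 and -1.54 ± 0.22). The muscarinic receptor Chrm3 was level, at 27.7 and 26.6 TPM against 33.5 and 25.5 TPM (0.10). In the whole list of 20 receptors and calcium genes, 4 were called lower and 1 (Orai1) higher as deposited, and 7 and 0 after scaling. Of 22 tested exocytosis genes, 3 fell (Myrip, Rab27b and Rab26) and 2 rose (the syntaxins Stx3 and Stx4a). Over all genes 4.03% were called lower and 9.12% higher in both scalings, so the count of rises was near that of all genes. Myrip, which tethers granules to actin through Rab27, had 37.4 and 35.4 TPM in saline mice and 4.42 and 6.14 TPM in AP mice (-2.69 ± 0.18). Without saline replicate 1, 6 exocytosis genes in place of 3 were called higher.

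The ER machinery split into genes that fell and stress genes that rose. Of 34 tested ER chaperone and unfolded protein response genes, 9 were called lower and 4 higher as deposited, and 16 and 3 after scaling, with a median of -0.30. Derl3, which passes misfolded proteins out of the ER, had 350 and 330 TPM in saline mice and 34.7 and 26.3 TPM in AP mice (-3.47 ± 0.21, adjusted p = 1e-04). Ero1lb, the oxidase that drives disulphide formation in secretory cells, had 2097 and 2095 TPM in saline mice and 278 and 213 TPM in AP mice (-3.10 ± 0.14). These genes and Herpud1 (-2.07), Edem1 (-1.67), Sel1l (-1.62) and Edem2 (-1.56), which also serve degradation of ER proteins, fell without overlap between the groups. The folding enzyme gene P4hb fell too, from 3742 and 4069 TPM to 1623 and 1558 TPM (-1.29).

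The rises in this list included 3 genes of the branch of the response that follows from eIF2alpha phosphorylation. The phosphorylation was not measured, and activity of the branch was not tested. Trib3, a pseudokinase induced by that branch, had 6.70 and 7.97 TPM in saline mice and 67.8 and 57.5 TPM in AP mice (3.01 ± 0.20, adjusted p = 0.00014). Ddit3 (CHOP) had 23.5 and 22.3 TPM in saline mice and 99.5 and 80.3 TPM in AP mice (1.94), and Ppp1r15a, which reverses the phosphorylation, had 13.9 and 13.2 TPM in saline mice and 43.2 and 39.4 TPM in AP mice (1.57). No saline mouse reached the level of an AP mouse in these 3 genes. The major chaperone Hspa5 (BiP) had 895 and 1085 TPM against 1354 and 1352 TPM, and its change of 0.46 was that of the median gene. Calr, a lectin chaperone, differed by 0.81 and was not called.

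Promoters of genes that moved and of genes that were not called in this list share an element. The ER stress response element, in which CCAAT and CCACG stand 9 bases apart and which ATF6 and XBP1 bind, was searched for on both strands of the 300 bases around each start site. It was found in 9 of 28 list members with a promoter in the RefSeq table (32.1%) and in 37 of 27025 genes of the table (0.137%). Among the 9 members holding it, Derl3 and Dnajc3 were called lower and none was called higher. Among the 19 without it, 6 were called lower and 3 higher. Sites of 4 genes are shown on build GRCm38, 5′ to 3′ on the strand of the gene, with the 2 parts of the element in capitals: they come from 2 genes that fell and 2 that were not called. The element reads CCAAT first in Dnajc3 and Hspa5, and lies on the opposite strand in Derl3 and Calr.
Derl3, chr10:75893212-75893290, plus strand: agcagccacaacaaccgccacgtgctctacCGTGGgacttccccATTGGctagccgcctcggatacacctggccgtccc
Dnajc3, chr14:118937797-118937875, plus strand: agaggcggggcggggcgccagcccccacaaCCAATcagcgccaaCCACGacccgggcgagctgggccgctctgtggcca
Hspa5, chr2:34771995-34772073, plus strand: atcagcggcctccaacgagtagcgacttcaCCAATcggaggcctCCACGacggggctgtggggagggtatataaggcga
Calr, chr8:84847045-84847123, minus strand: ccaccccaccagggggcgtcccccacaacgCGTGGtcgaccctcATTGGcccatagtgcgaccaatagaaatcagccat
The capitals begin 156 bases before the start site in Derl3, 105 in Dnajc3, 65 in Hspa5 and 162 in Calr. A match of letters is a description of these windows and does not show that a factor was bound.

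Transport from the ER to the Golgi fell in part as well. Of 45 tested genes of translocation and transport, 7 were called lower as deposited and 13 after scaling, and 0 were called higher in either. Tmed6, a p24 cargo protein, had 4618 and 4607 TPM in saline mice and 1114 and 1018 TPM in AP mice (-2.11 ± 0.09, adjusted p = 3.4e-05). Lman1, a lectin that carries glycoproteins out of the ER, had 210 and 230 TPM in saline mice and 86.8 and 87.3 TPM in AP mice (-1.33), and its partner Mcfd2 had 584 and 742 TPM against 290 and 309 TPM (-1.14). Both mice of each group were close together and the groups apart. Coat protein genes such as Copa (0.45) and Copb2 (0.70) were not called. Without saline replicate 2, 4 genes of this list in place of 7 were called lower.

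**Figure D3:**
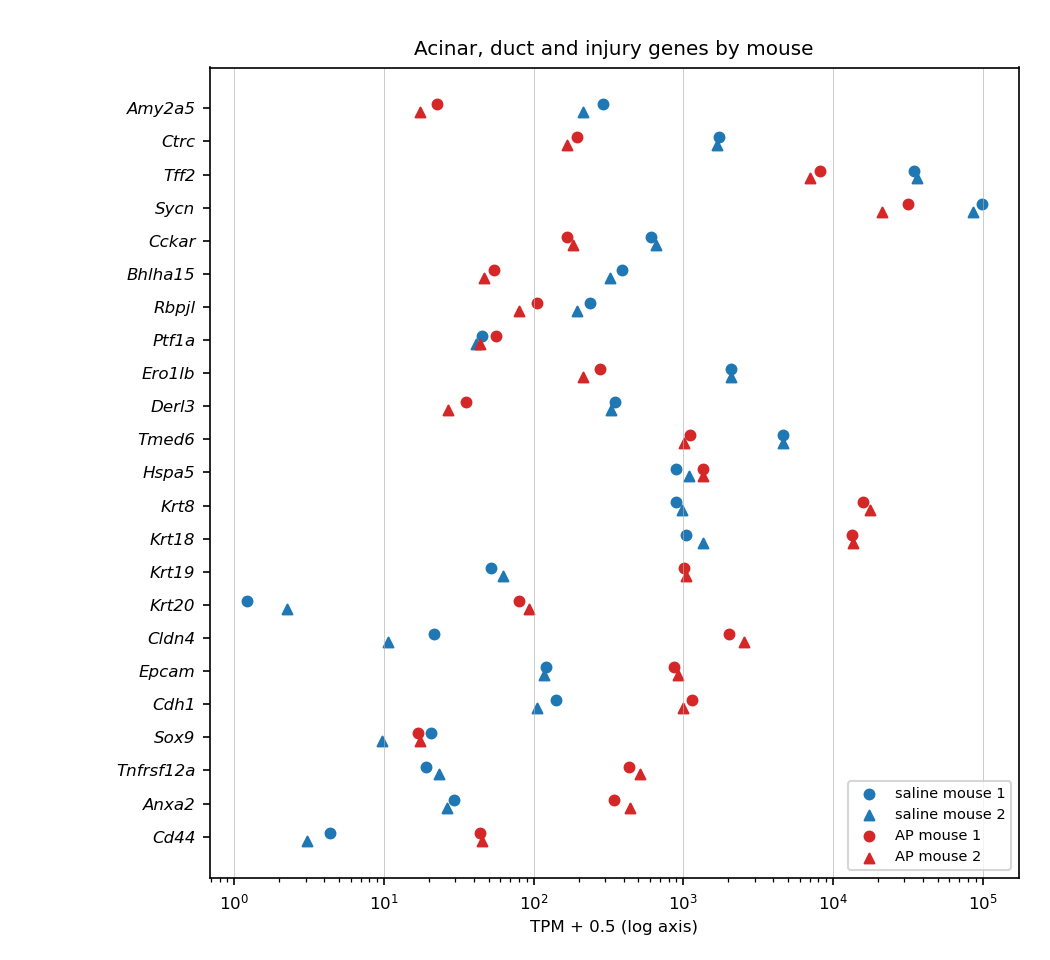
TPM + 0.5 on a log axis for 23 acinar, duct and injury genes (rows) in each saline mouse (blue) and AP mouse (red), with circles for mouse 1 and triangles for mouse 2 of a group. Red points lie left of blue ones for acinar genes such as Amy2a5 and Derl3 and far to the right for Krt8, Krt20 and Cldn4, while the groups overlap for Ptf1a and Sox9.

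In the epithelial programme, several keratins and junction genes of duct cells rose strongly. The 28 duct markers summed to 0.304% and 0.327% of TPM in saline mice and to 3.63% and 3.85% in AP mice. Of 26 tested, 12 were called higher and 0 lower as deposited, and 10 and 0 after scaling. Krt8 had 889 and 983 TPM in saline mice and 15870 and 17680 TPM in AP mice (4.16 ± 0.16, adjusted p = 2.5e-05), and its filament partner Krt18 had 1038 and 1346 TPM against 13500 and 13600 TPM (3.52 ± 0.19). Krt19, a classical duct keratin, had 51.2 and 62.4 TPM in saline mice and 1016 and 1041 TPM in AP mice (4.17 ± 0.11). Krt20, normally a keratin of the gut lining, had 0.711 and 1.75 TPM in saline mice and 78.9 and 93.0 TPM in AP mice (5.71 ± 0.32). Each of these keratins was more than 10 times higher in the lower AP mouse than in the higher saline mouse. The adhesion genes Epcam (120 and 117 against 864 and 916 TPM) and Cdh1 (142 and 104 against 1141 and 991 TPM) rose by 2.90 and 3.12, and the claudins Cldn7 and Cldn3 by 2.61 and 1.98.

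Other duct genes, some keratins among them, did not follow Krt8, Krt18, Krt19 and Krt20. Krt7 was called higher only as deposited, from 4.13 and 3.21 TPM to 8.02 and 11.55 TPM (1.29). Krt23 was not called in either scaling, at 78.8 and 74.8 TPM against 135 and 151 TPM (0.89). Sox9, the transcription factor of duct cells, had 20 and 9.17 TPM in saline mice and 16.4 and 16.9 TPM in AP mice (0.28). Its groups overlapped. Cftr, the chloride channel of ducts, was called higher only as deposited, from 1.28 and 1.76 TPM to 6.75 and 8.46 TPM (2.01 ± 0.54). The transporters Slc4a4 and Slc26a6 were not called. The duct marker summed share in AP mice was made up mostly of Krt8 and Krt18, which acinar cells also express at a low level.

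Injury and regeneration genes rose in larger number: of 28 tested, 22 were called higher and 1 lower as deposited, and 16 and 1 after scaling. Tnfrsf12a, the receptor of the cytokine TWEAK, had 18.5 and 22.7 TPM in saline mice and 432 and 516 TPM in AP mice (4.49 ± 0.14, adjusted p = 1.4e-05). Itga2, a collagen-binding integrin, had 1.62 and 2.0 TPM in saline mice and 31.3 and 37.7 TPM in AP mice (3.92 ± 0.14). Anxa2 had 29.1 and 25.9 TPM against 346 and 442 TPM (3.81), and Cd44, the hyaluronan receptor, had 3.83 and 2.55 TPM against 43.6 and 44.6 TPM (3.62). The epidermal growth factor receptor Egfr (1.63) and the hepatocyte growth factor receptor Met (1.70) rose, while the ligand Tgfa was not called (0.01). Lcn2, a siderophore-binding protein, had 1.84 and 0 TPM in saline mice and 22 and 17.4 TPM in AP mice.

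The regenerating islet-derived genes went different ways. Reg3d fell from 4415 and 4477 TPM to 825 and 774 TPM (-2.48). Reg3g was called higher only as deposited, and its saline mice were far apart, at 617 and 79.5 TPM, below 1623 and 1493 TPM in AP mice. Reg3a had 2907 and 738 TPM in saline mice and 2829 and 2387 TPM in AP mice, so its groups overlapped. These genes are close copies of each other, and how reads were divided among them is uncertain.

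Of the stress genes outside the ER, 132 in 5 lists were tested, and 89 were called higher and 2 lower as deposited, and 62 and 2 after scaling. The p53 targets had the highest median, 2.20: of 24 tested, 20 were called higher and 1 lower as deposited, and 16 and 1 after scaling. Phlda3, a repressor of Akt, had 4.10 and 3.36 TPM in saline mice and 132 and 128 TPM in AP mice (4.95 ± 0.14, adjusted p = 1.3e-05). Eda2r had 1.55 and 2.80 TPM in saline mice and 72.2 and 49.1 TPM in AP mice (4.53 ± 0.26). Bax, the pore protein of apoptosis, had 7.56 and 10.2 TPM against 65.1 and 95 TPM (3.09), and the cell cycle inhibitor Cdkn1a (p21) had 38.1 and 33.4 TPM against 126 and 111 TPM (1.72). Both AP mice were above both saline mice in 21 of the 24 as deposited, beside 52.6% of all genes. Sesn1 was the exception that fell, from 291 and 392 TPM to 62.1 and 63.1 TPM (-2.42), whereas its relative Sesn2 rose (2.02). Gdf15, a stress hormone gene, had saline values of 0.234 and 4.61 TPM and AP values of 36.0 and 32.6 TPM.

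Of 28 tested AP-1 and immediate early genes, 20 were called higher as deposited and 16 after scaling, and 0 lower in either. Atf3, an AP-1 family factor of the stress response, had 2.05 and 6.31 TPM in saline mice and 118 and 106 TPM in AP mice (4.75 ± 0.42, adjusted p = 0.00034). Junb had 15.2 and 8.42 TPM in saline mice and 194 and 216 TPM in AP mice (4.12 ± 0.26). Ier3, a survival gene, and Gadd45a, a growth arrest gene, rose by 4.71 and 4.16. The groups were apart in these 4 genes, and AP mice lay close to each other. Myc was not called, at 13.3 and 6.87 TPM against 11.7 and 12.8 TPM (0.33), and neither were Klf4 (0.04) and Klf2 (0.35).

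The NF-kB list held 23 tested genes, of which 15 were called higher as deposited and 9 after scaling, and 0 lower. The subunit genes Nfkb2 (13.2 and 12.7 against 121 and 131 TPM, 3.24 ± 0.10) and Relb (5.79 and 5.44 against 41.9 and 46.5 TPM, 2.87 ± 0.13) rose, and Rela had 40.6 and 39.4 TPM against 190 and 185 TPM (2.22). Tnip1, which restrains the pathway with A20, rose most, from 3.15 and 3.69 TPM to 68.2 and 65.6 TPM (4.11 ± 0.12). The groups were apart in these genes, while Nfkbia, the main inhibitor, was called only as deposited (116 and 131 against 308 and 330 TPM, 1.37). The kappaB motif GGGNNTTTCC, searched on both strands, was in the promoters of 5 of 18 members (27.8%) and of 1.89% of all genes. Of those 5, 4 were called higher as deposited, as were 7 of the 13 without it. Sites of 2 subunit genes that rose are shown with the motif in capitals, read on the opposite strand in Rel.
Nfkb2, chr19:46305680-46305744, plus strand: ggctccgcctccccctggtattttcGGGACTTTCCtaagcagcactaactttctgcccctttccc
Rel, chr11:23771021-23771090, minus strand: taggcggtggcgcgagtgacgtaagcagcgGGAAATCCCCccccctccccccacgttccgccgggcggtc
Rel encodes c-Rel and rose from 2.48 and 1.69 TPM to 8.28 and 8.72 TPM (1.82).

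Calls of cytosolic heat shock genes depended on the scaling, with 14 of 23 called higher as deposited and 5 after scaling. Hspa1b, the inducible Hsp70, had 2.93 and 1.80 TPM in saline mice and 53.6 and 59.9 TPM in AP mice (4.35 ± 0.21, adjusted p = 5.3e-05). Hspb1, a small heat shock protein, had 38.5 and 45.5 TPM in saline mice and 336 and 322 TPM in AP mice (2.96 ± 0.11), and Hsp90aa1 had 98.4 and 98.6 TPM against 441 and 514 TPM (2.27 ± 0.10). These 3 genes were clear of overlap, whereas the constitutive Hspa8 (0.57) and the mitochondrial Hspe1 (0.44) were not called. The heat shock element GAANNTTC, which reads the same on both strands, was found in the promoters of 11 of 18 members (61.1%) and of 9.04% of all genes. Of the 11, 6 were called higher as deposited, and of the 7 without it, 5 were. It is shown in capitals for the 2 genes of the list that rose most, and the Hspb1 stretch holds a further match in lower case, 97 bases before the start site.
Hspa1b, chr17:34959305-34959372, minus strand: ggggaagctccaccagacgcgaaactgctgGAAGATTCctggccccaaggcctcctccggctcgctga
Hspb1, chr5:135887772-135887839, plus strand: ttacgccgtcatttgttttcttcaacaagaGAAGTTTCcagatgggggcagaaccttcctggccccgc
The neighbouring copy Hspa1a carries the same printed stretch as Hspa1b, and reads of the 2 near-identical genes cannot be divided with certainty. Hspa1a was listed at 5.08 and 0.852 TPM in saline mice and at 14.5 and 22.8 TPM in AP mice.

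Of 34 tested antioxidant genes and targets of Nrf2, the factor that senses oxidative stress, 20 were called higher and 1 lower as deposited, and 16 and 1 after scaling. Srxn1 (sulfiredoxin) had 14.1 and 10.7 TPM in saline mice and 201 and 240 TPM in AP mice (4.11 ± 0.16, adjusted p = 2.5e-05). Hmox1, which encodes heme oxygenase-1, had 6.43 and 5.03 TPM in saline mice and 68.9 and 69.8 TPM in AP mice (3.50 ± 0.17). Gclc, the catalytic subunit of glutathione synthesis, had 39.5 and 35.6 TPM against 356 and 455 TPM (3.40 ± 0.21), but its modifier Gclm had 40.5 and 40.5 TPM against 28.7 and 29.7 TPM (-0.46) and was not called. The 2 subunits of that enzyme thus differed in direction in these mice. Other members that rose were the pentose phosphate pathway genes Taldo1 (2.22), G6pdx (1.76), Tkt (1.64) and Pgd (1.52) and the malic enzyme gene Me1 (1.70). Catalase (Cat, 0.05) and the superoxide dismutase genes Sod1 (-0.14) and Sod2 (-0.53) were not called, and Gstm1 fell (-1.70). The core of the antioxidant response element, TGACNNNGC on either strand, was in 10 of 28 promoters of the list (35.7%) and in 14% of all genes.

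**Figure D4:**
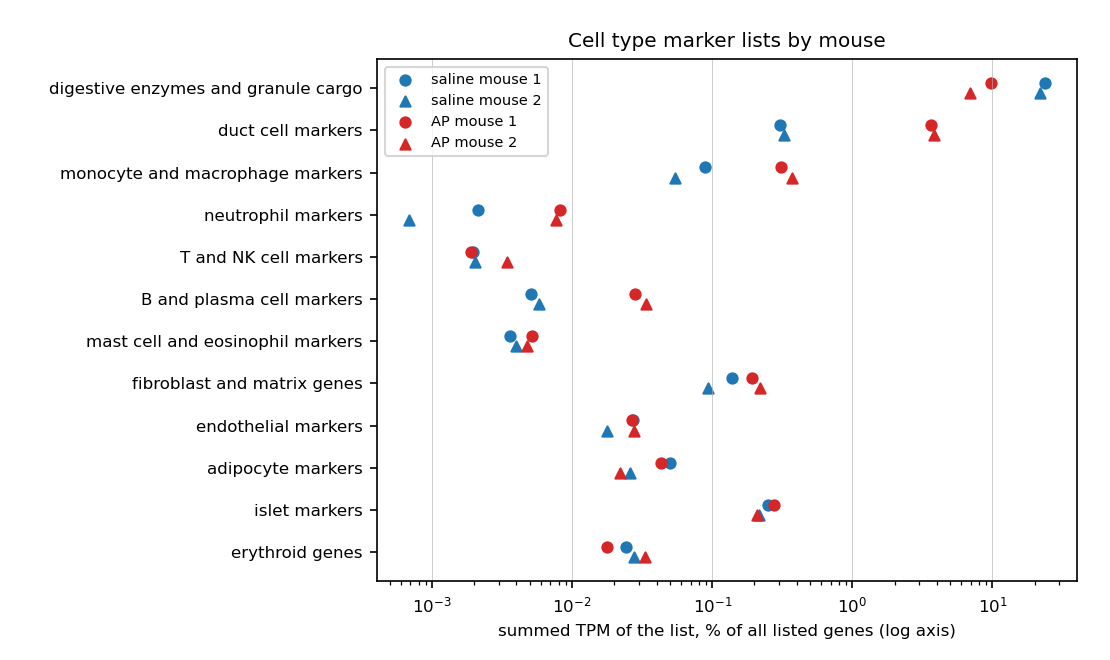
Summed TPM of 12 cell type marker lists as a percentage of all listed genes (log axis) in each saline mouse (blue) and AP mouse (red), circles for mouse 1 and triangles for mouse 2. Digestive cargo falls from 23.7% and 21.9% to 9.70% and 6.95% and duct markers rise above 3%, macrophage markers rise above 0.3%, and the T cell, endothelial, adipocyte and islet lists overlap or nearly overlap between groups.

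Before the immune results, 2 libraries stand apart. Saline mouse 1 was above saline mouse 2 for many immune, matrix and acute phase genes, such as Hp (16.6 against 1.28 TPM) and Timp1 (9.90 against 1.22 TPM), and the summed macrophage markers were 0.0887% and 0.0546% of TPM. AP mouse 2 alone was high for B cell and lymphoid tissue genes: Cd79b had 5.21 and 8.00 TPM in saline mice and 1.56 and 19.0 TPM in AP mice, Ms4a1 (CD20) had 1.34, 0.681, 1.08 and 7.91 TPM, and the B cell chemoattractant Cxcl13 had 11.3, 0.732, 4.48 and 41.2 TPM. Marco, a macrophage receptor, had 35.4 and 5.44 TPM against 12.3 and 123 TPM. The part of such tissue in the immune results was not tested, and counts without each of these libraries are given where they moved.

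Monocyte and macrophage genes rose most broadly. Of 28 tested, 20 were called higher and 0 lower as deposited, and 18 and 1 after scaling, with a median of 2.20. The summed markers made up 0.311% and 0.368% of TPM in AP mice. Cd14, the lipopolysaccharide co-receptor, had 15.7 and 13.9 TPM in saline mice and 218 and 222 TPM in AP mice (3.85 ± 0.10, adjusted p = 1.3e-05). Fcgr1, the high-affinity Fc receptor of monocytes, had 2.16 and 1.33 TPM in saline mice and 29.8 and 30.1 TPM in AP mice (3.79 ± 0.25), and the scavenger receptor gene Msr1 had 3.02 and 2.55 TPM against 35.9 and 38.1 TPM (3.52 ± 0.16). The groups were clear of overlap in all 3 and the AP mice were nearly equal. Trem2 was at 0.195 and 0.120 TPM in saline mice and 5.21 and 5.91 TPM in AP mice (3.20). Some members gave smaller values, with Cd163 at 0.60 and Cx3cr1 at 0.77, neither called. Mertk (12.2 and 11.7 against 6.58 and 9.19 TPM, -0.59) was called lower after scaling only. These 3 are genes of resident macrophages, but they were picked after their values were seen. They do not describe such genes as a set. Without AP replicate 2, 12 genes of the list were called higher, and without AP replicate 1, 14.

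Neutrophil genes were low and uncertain. Of 10 tested, 4 were called higher as deposited and 2 after scaling. Retnlg, a neutrophil resistin-like gene, had 2.25 and 2.77 TPM in saline mice and 35.4 and 28.0 TPM in AP mice (3.41 ± 0.67, adjusted p = 0.0072). Mmp8, neutrophil collagenase, was listed at 0 in both saline mice and at 1.54 and 3.21 TPM in AP mice. S100a8 had 6.26 and 0 TPM in saline mice and 6.18 and 9.40 TPM in AP mice, so the groups overlapped, and Elane, a gene of immature neutrophils, was listed at 0 in all 4 mice. The count of 4 became 2 without saline replicate 1, 1 without saline replicate 2, 1 without AP replicate 1 and 0 without AP replicate 2.

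Lymphocyte lists held no called gene except Sdc1. Of 9 tested T and NK cell genes, 0 were called by limma in either scaling or by limma-voom, and 1 was higher at an unadjusted p under 0.05. Cd3e had 0.284 and 0.349 TPM in saline mice and 0 and 0.0768 TPM in AP mice, and Foxp3 had 0.817 and 0.628 TPM against 0.628 and 0.662 TPM. These levels are worth few reads, and the size of change that could be detected was not measured. Sdc1 (syndecan 1), a plasma cell marker that epithelial cells also express, rose from 23.3 and 21.6 TPM to 271 and 244 TPM (3.49 ± 0.10), while the plasma cell genes Jchain and Mzb1 overlapped between groups. Sdc1 made up most of the summed B and plasma cell markers in the AP mice. Of 14 tested MHC class II and dendritic cell genes, 4 were called higher as deposited, and 2 (H2-Ab1 and Bst2) higher and 1 (Zbtb46) lower after scaling. AP mouse 2 was again the higher one, as for H2-Aa with 34.1 and 28.8 TPM in saline mice and 56.8 and 106 TPM in AP mice. Without saline replicate 1, saline replicate 2 or AP replicate 2, 2 genes in place of 4 were called. Among 6 tested mast cell and eosinophil genes, the eosinophil chemokine receptor Ccr3 rose from 0 and 0.515 TPM to 4.86 and 3.17 TPM and mast cell carboxypeptidase Cpa3 fell from 5.19 and 9.58 TPM to 1.77 and 2.20 TPM (-1.61).

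Chemokine genes, whose products draw monocytes, neutrophils and other leukocytes, changed in 1 direction where they were called. Of 24 tested ligand genes, 9 were called higher as deposited and 8 after scaling, with 0 lower. Ccl7 had 5.99 and 1.05 TPM in saline mice and 180 and 218 TPM in AP mice (5.97 ± 0.60, adjusted p = 0.00051). Ccl9 had 21.9 and 7.92 TPM in saline mice and 196 and 194 TPM in AP mice (3.83 ± 0.41), and Cxcl16, a membrane-bound ligand, had 3.29 and 2.19 TPM against 39.9 and 46.1 TPM (3.76). Saline mice differed from each other several-fold in Ccl7 and Ccl9, yet both lay below both AP mice. Cxcl1, a neutrophil attractant, rose from 0.243 and 0.298 TPM to 9.12 and 14.8 TPM (3.98 ± 0.40). The interferon-induced ligands Cxcl9 and Cxcl10 had at most 2.04 TPM in any of the 4 mice, and Cxcl12, a constitutive ligand of stroma, was not called (-0.51).

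Of 27 tested cytokine and receptor genes, 16 were called higher and 3 lower as deposited, and 11 and 4 after scaling. The interleukin-1 receptor antagonist gene Il1rn had 0.423 and 0 TPM in saline mice and 10.6 and 10.2 TPM in AP mice (4.0 ± 0.32, adjusted p = 0.00024). Lif had 1.33 and 0.364 TPM in saline mice and 10.1 and 10.3 TPM in AP mice (3.09 ± 0.38), and Osmr, the oncostatin M receptor, had 4.12 and 5.55 TPM against 30.7 and 29.4 TPM (2.53 ± 0.15). Receptors of the same gp130 family moved apart: Lifr fell from 410 and 454 TPM to 131 and 132 TPM (-1.71), Il6ra fell by 1.10 on the log2 scale, and the shared subunit Il6st was not called (0.94). Il22ra1, the interleukin-22 receptor of acinar cells, fell from 164 and 230 TPM to 84.7 and 74.2 TPM (-1.29). Socs3, the feedback inhibitor, rose from 19.8 and 7.17 TPM to 63.1 and 67.7 TPM (2.40). Il6 itself was at 0.181 TPM or less in all 4 mice. Without AP replicate 2, 10 genes in place of 16 were called higher.

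Interferon-stimulated genes rose in AP mice that had received no polyI:C. Of 37 tested, 28 were called higher as deposited and 22 after scaling, and 0 lower, with a median of 1.81. Rsad2 (viperin) had 3.91 and 2.97 TPM in saline mice and 70.3 and 94.8 TPM in AP mice (4.39 ± 0.18, adjusted p = 3.4e-05). Oas1a had 2.91 and 1.79 TPM in saline mice and 15.2 and 25.1 TPM in AP mice (2.84 ± 0.28), and the peptide transporter gene Tap1 had 2.91 and 4.88 TPM against 27.0 and 29.1 TPM (2.73 ± 0.22). These genes did not overlap between groups, and AP mouse 2 was the higher of the AP mice in each. Usp18 showed it most plainly, with 5.03 and 0.714 TPM in saline mice and 7.4 and 21.1 TPM in AP mice. Ifit2 (0.16) and Ifi27 (0.05) were not called. The interferon-stimulated response element, GAAANNGAAA on either strand, was in the promoters of 16 of 30 members (53.3%) and of 3.99% of all genes. Of those 16, 14 were called higher as deposited, as were 10 of the 14 without it. Sites are shown in capitals for Rsad2, Gbp2 (a GTPase gene, 8.82 and 5.57 against 20.6 and 33.1 TPM) and B2m (the light chain of MHC class I, 222 and 193 against 494 and 659 TPM), which all rose. The letters are read on the opposite strand in Rsad2 and Gbp2.
Rsad2, chr12:26456533-26456602, minus strand: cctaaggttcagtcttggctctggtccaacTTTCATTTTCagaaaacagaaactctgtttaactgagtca
Gbp2, chr3:142620574-142620643, plus strand: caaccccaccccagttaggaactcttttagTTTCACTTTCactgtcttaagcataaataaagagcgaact
B2m, chr2:122147518-122147587, plus strand: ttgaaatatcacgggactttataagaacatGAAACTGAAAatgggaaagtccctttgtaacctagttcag
The capitals begin 120 bases before the start site in Rsad2, 59 in Gbp2 and 139 in B2m.

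Acute phase, complement and coagulation genes were mixed. Of 25 tested, 10 were called higher and 2 lower as deposited, and 7 and 2 after scaling. Serpina3n, an acute phase protease inhibitor, had 25.6 and 18.4 TPM in saline mice and 144 and 142 TPM in AP mice (2.70), and the complement receptor C3ar1 had 7.16 and 2.54 TPM against 34.7 and 29.9 TPM (2.76 ± 0.40). Hp (haptoglobin) rose with a large error (3.90 ± 0.97, adjusted p = 0.018), since its saline mice were at 16.6 and 1.28 TPM and its AP mice at 106 and 62.6 TPM. Itih4 and Itih2, inhibitors that also bind hyaluronan, fell by 2.30 and 1.64 on the log2 scale. The serum amyloid gene Saa3 overlapped between groups, with 39.5 and 3.95 TPM against 4.39 and 14.1 TPM. Without AP replicate 1 or without AP replicate 2, 4 of the list were called higher in place of 10.

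In the stromal programme, matrix genes rose and vessel genes did not. Of 36 tested fibroblast and matrix genes, 23 were called higher and 0 lower as deposited, and 16 and 1 after scaling. Col3a1, a fibrillar collagen, had 72.4 and 31.9 TPM in saline mice and 302 and 348 TPM in AP mice (2.74 ± 0.34, adjusted p = 0.0011). Timp1, the metalloproteinase inhibitor, had 9.90 and 1.22 TPM against 75.8 and 72.5 TPM (4.14 ± 0.74), and Postn (periostin) had 2.16 and 1.56 TPM against 14.7 and 10.7 TPM (2.48 ± 0.22). As deposited, both AP mice were above both saline mice in 30 of the 36, beside 52.6% of all genes. Saline mouse 1 was often above saline mouse 2. Fibroblast identity genes such as Pdgfra (0.35) were not called, Dcn (decorin) was called lower after scaling only (671 and 540 against 308 and 425 TPM, -0.73), and the smooth muscle gene Acta2 overlapped between groups, at 37.7 and 6.15 against 28.4 and 55.3 TPM. Without AP replicate 2, 12 genes in place of 23 were called higher. Among 20 endothelial markers only the leukocyte adhesion genes Icam1 and Vcam1 rose, the latter from 3.55 and 2.36 TPM to 8.63 and 11.7 TPM (1.64 ± 0.33), and the median of the list was 0.04, with Pecam1 at 0.12 and Cdh5 at -0.04.

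Islet hormone genes were not called. Ins2 had 378 and 260 TPM in saline mice and 266 and 218 TPM in AP mice (-0.38), Sst had 34.3 and 33.8 TPM against 29.7 and 24.7 TPM (-0.32), and Iapp had 578 and 723 TPM against 723 and 616 TPM (0.05). Of 23 tested islet genes, 1 was called higher and 1 lower in both scalings. The lower one was Slc30a8, the zinc transporter of insulin granules, with 37.9 and 32.1 TPM in saline mice and 21.6 and 13.5 TPM in AP mice (-1.0 ± 0.28, adjusted p = 0.029). Its call was lost with a pseudocount of 1, with no filter, with only the AP and saline mice in the fit, and without any 1 of the 4 mice (-0.68 to -1.33). Among 13 adipocyte genes, Lpl and Acvr1c fell (-1.79 and -1.91), and the defining marker Adipoq had 13.5 and 5.98 TPM in saline mice and 12.5 and 3.64 TPM in AP mice. Mouse 1 of each group was thus the higher one for fat genes. Of 6 erythroid genes 0 were called by limma in either scaling or by limma-voom, and 1 was higher at an unadjusted p under 0.05.

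**Figure D5:**
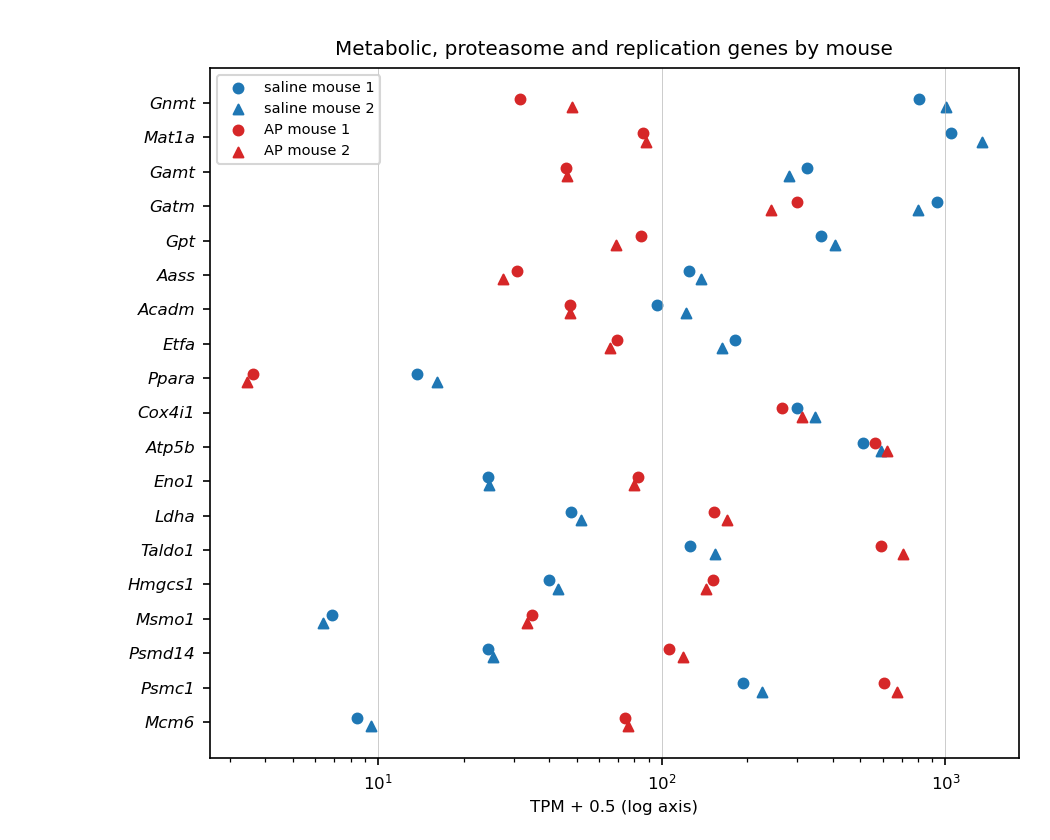
TPM + 0.5 on a log axis for 19 genes of metabolism, the proteasome and DNA replication (rows) in each saline mouse (blue) and AP mouse (red), circles for mouse 1 and triangles for mouse 2. Methyl-donor, creatine and amino acid enzymes (Gnmt to Aass) lie lower in AP mice, Cox4i1 and Atp5b do not separate, and Eno1, Msmo1, Psmd14 and Mcm6 lie higher.

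In metabolism the enzymes of amino acids, methyl groups and creatine, which the resting pancreas expresses at a high level, fell. Of 40 tested, 16 were called lower and 2 higher as deposited, and 21 and 0 after scaling, with a median of -0.61. Gnmt, which disposes of surplus methyl groups by methylating glycine, had 803 and 1002 TPM in saline mice and 31.2 and 47.8 TPM in AP mice (-4.52 ± 0.21, adjusted p = 4.6e-05). Mat1a, which makes the methyl donor S-adenosylmethionine, had 1045 and 1342 TPM in saline mice and 85.5 and 87.6 TPM in AP mice (-3.77 ± 0.13). Both steps of creatine synthesis fell, Gatm from 929 and 799 TPM to 298 and 241 TPM (-1.68) and Gamt from 323 and 281 TPM to 45.6 and 45.6 TPM (-2.71 ± 0.13). None of these genes overlapped between groups. Gpt (alanine aminotransferase), Bcat2, Prodh and Aass, which transfer or break down amino acids, fell by 2.34, 2.07, 2.16 and 2.16 on the log2 scale. Mat2a, the form of Mat1a used outside the liver and pancreas, was at 44.3 and 47.9 TPM against 76.7 and 81.1 TPM and was not called (0.77). The serine synthesis genes Phgdh (-0.42) and Psat1 (-0.50) were not called either. Without saline replicate 1, 4 in place of 2 were called higher.

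Glycolysis and mitochondrial genes differed from this and from each other. Of 23 tested glycolysis genes, 14 were called higher and 2 lower as deposited, and 8 and 3 after scaling. Eno1 (enolase) had 23.9 and 24 TPM in saline mice and 82.0 and 79.4 TPM in AP mice (1.73 ± 0.10, adjusted p = 8.3e-05), Ldha had 47.2 and 51.5 TPM against 152 and 169 TPM (1.69 ± 0.13), and Hk1 had 2.51 and 2.83 TPM against 8.94 and 11 TPM (1.72 ± 0.19). Ldhb and Pdk1, which favour the use or sparing of pyruvate in mitochondria, fell (-1.04 and -1.16). Of 40 nuclear genes of oxidative phosphorylation, 1 (Cycs) was called higher as deposited, beside 18.2% of all genes. After scaling 3 were called lower, a share near the 7.42% of all genes. The list median was -0.01, below the 0.45 of all genes. Of 33 genes of the tricarboxylic acid cycle and fatty acid oxidation, 5 fell: the regulators Ppara (13.2 and 15.6 against 3.12 and 2.94 TPM, -2.07 ± 0.21) and Ppargc1a (-1.64), the electron carriers Etfa (-1.35) and Etfb (-1.10), and the medium-chain dehydrogenase Acadm (-1.18). After scaling 11 were called lower. Without AP replicate 1, 3 in place of 5 were called lower, and without AP replicate 2, 9 of the glycolysis genes in place of 14 were called higher.

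Cholesterol synthesis and uptake genes, which the factor SREBP2 controls together, rose: of 24 tested, 12 were called higher as deposited and 10 after scaling, and 0 lower. Msmo1, a sterol oxidase, had 6.37 and 5.89 TPM in saline mice and 34.4 and 32.9 TPM in AP mice (2.36 ± 0.12, adjusted p = 5.1e-05). Hmgcs1, at the start of the pathway, had 39.6 and 42.5 TPM against 151 and 142 TPM (1.82 ± 0.11). Both AP mice were above both saline mice in 22 of the 24 genes as deposited, beside 52.6% of all genes. Lss lay the other way (-0.39, not called). A CCAAT box, which is also part of the ER element above, was in the promoters of all 16 members in the RefSeq table and of 41.1% of all genes.

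Protein turnover and synthesis moved unequally. Each of the 31 proteasome subunit genes was higher in every AP mouse than in any saline mouse as deposited, beside 52.6% of all genes. Of the 31, 28 were called as deposited and 10 after scaling, beside 18.2% and 9.12% of all genes. The summed subunits went from 0.292% and 0.358% to 0.712% and 0.825% of TPM. Psmd14, the deubiquitinase of the lid, had 23.9 and 24.9 TPM in saline mice and 105 and 119 TPM in AP mice (2.17 ± 0.12, adjusted p = 7.4e-05), and Psmd1 had 22 and 20.2 TPM against 79.6 and 86.5 TPM (1.95 ± 0.12). Their changes after scaling were 1.73 and 1.51. Of 58 cytosolic ribosomal protein genes, 0 were called by limma in either scaling or by limma-voom (3 were higher and 7 lower at an unadjusted p under 0.05), with a median of -0.03 as deposited and -0.48 after scaling. Rplp1 had 14190 and 16520 TPM in saline mice and 14030 and 15910 TPM in AP mice (-0.04). Ribosome biogenesis genes were higher in all pairs of mice in 31 of 33 as deposited, beside 52.6% of all genes. Of the 33, 10 were called higher as deposited and 3 after scaling (Noc4l, Nhp2 and Rrp9). The shares over all genes were 18.2% and 9.12%, so the count after scaling was near that of all genes. Of 20 aminoacyl-tRNA synthetase genes only Rars was called higher in both scalings (1.79 ± 0.13), from 53.2 and 67.9 TPM to 212 and 206 TPM.

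Cdk1 and 5 genes of the replicative helicase rose among the cell cycle genes. Mcm2, a further helicase gene (1.23), was not among the genes called in both scalings. Of 30 tested cell cycle genes, 13 were called higher as deposited and 8 after scaling, and 0 lower. Mcm6, of the replicative helicase, had 7.93 and 8.93 TPM in saline mice and 73.4 and 75.4 TPM in AP mice (3.07 ± 0.11, adjusted p = 2.1e-05), and Mcm5 had 3.23 and 1.98 TPM against 23.2 and 27.7 TPM (3.09 ± 0.25). Mcm3, Mcm7 and Mcm4 rose by 2.55, 1.95 and 1.95. Cdk1, the kinase that starts mitosis, rose from 0.246 and 0.454 TPM to 4.37 and 6.92 TPM (2.83 ± 0.47). The groups were clear of overlap for Cdk1 and these 5 helicase genes. Mki67, the proliferation antigen, had 1.72 and 2.28 TPM in saline mice and 3.62 and 5.01 TPM in AP mice (0.94, not called), Plk1 overlapped (0.411 and 2.02 against 0.421 and 0.555 TPM), and Ccnd1 had 15.2 and 6.19 TPM against 15.1 and 15.4 TPM (0.62). Without AP replicate 2, 6 genes in place of 13 were called higher.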

How the data were processed

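Pancreas RNA of 2 saline and 2 AP mice was compared. The 2 polyI:C-pretreated AP mice entered the estimate of the spread, the filter on mean TPM, the prior variance and the scaling factors. The values the authors deposited are TPM, 1 table per mouse. Per the labels and methods, reads were trimmed (Trimmomatic), aligned to mm10 (STAR) and counted (HTSeq), and the authors used DESeq2 for their own calls; versions and the step from counts to TPM are not given in the sources used here. The labels name both a ribosomal RNA depletion kit with a directional kit and an mRNA kit. DESeq2 was not run on these values, since TPM are not counts.

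Here log2(TPM + 0.5) was fitted with limma 3.58.1 in R 4.3.3, with 1 coefficient per group over 6 mice, for the 16814 genes of 22556 that averaged 1 TPM or more. The prior variance followed log2(mean TPM × exon length + 1), and p-values were Benjamini-Hochberg adjusted over all tested genes. The procedure was tested on simulated data in which as many genes were raised as reduced. That simulation did not include the loss of share by abundant genes seen here. Median-of-ratios scaling was run beside TPM as deposited. GENCODE M21 (GRCm38) gave symbols and coordinates for 22490 identifiers. Reads per library were estimated from the spacing of low TPM × length values, of which 51.2% to 62.0% lay within 0.1 of a whole multiple, so they are estimates. Promoters (250 bases before and 50 after the start) came from RefSeq on GRCm38.p6; of 8 motif and list pairs searched, chosen after a wider search of the same promoters, those not described were the AP-1 motif TGANTCA in injury genes and CCAAT in cell cycle genes.

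The gene lists and tests were chosen with earlier results of these data known. Named genes are, per list, up to 4 members with the largest change that were called in both scalings, averaged 5 TPM or more and moved in 1 direction in every AP and saline pair; the 10 largest rises and falls among protein-coding genes of at least 10 TPM and 300 bases of exon; the 10 most abundant genes of each group; and defining members of a list. Other list members named beside them, and the statements on Gclm, gp130 receptors and AP mouse 2, were chosen after their values were seen. The sources used here do not say whether the mice of a group shared a cage or an injection session. The p-values therefore measure only the spread between these mice. The saline and AP mice of the same number did not deviate together (correlation 0.01 across genes). Some members of the lists are not reported here by name.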

Additional observations from a re-analysis of the deposited data

How the results depend on the processing

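As deposited, 3053 genes were called higher and 677 lower in AP mice. Scaling changed the balance: 1534 higher and 1248 lower with the median of ratios, and 1530 and 1258 with the upper quartile. Leaving out 1 mouse at a time gave 1947 to 3112 higher and 438 to 645 lower calls, the lowest of both without AP replicate 2. With the replicate number as a replicate block, 2987 and 659 genes were called; the numbers do not pair the mice. The other settings (pseudocounts of 0.1 and 1, no filter or at least 5 TPM, only 4 mice in the fit, limma-voom on estimated reads, protein-coding genes only, and others) kept both counts within 1.5 times. Counts of calls per list without 1 mouse were added after the data were seen. Of the single genes named by the rule, compared under every setting, 2122 results kept their call or its absence. Of the others, 50 lost the call, 3 gained it and 0 were called in the opposite direction. The sign of genes called in neither fit was not compared: Rps12 went from 0.194 as deposited to -0.257 with median-of-ratios scaling. Of the list medians relative to all genes, 531 stayed within their spread, 71 moved beyond it and 6 moved beyond it with a change of sign. A change of sign was counted only where the reported median and the move both exceeded the spread. Mast cell and eosinophil markers, for example, went from 0.10 to -0.03 with a pseudocount of 1 and were not counted. Leaving out 1 mouse gave -0.03 (without saline replicate 1) to 0.05 for zymogen granule exocytosis and -0.45 to 0.43 for T and NK cell markers. T and NK cell markers went to -0.26 with no filter, to -0.47 with a mean of at least 5 TPM, and to -0.45, -0.43 and -0.08 without saline replicate 1, saline replicate 2 and AP replicate 2. The cause of these moves was not tested, except that the scalings differ by construction. Mice numbering 2 per group and the lower depth of the saline libraries limit what can be said of genes near 1 TPM.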

Other observations

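Families taken by their symbols, chosen after their values were seen, described the cytoskeleton and lysosome beside the lists above. Of the 13508 protein-coding genes tested, 21.1% were called higher and 4.12% lower with TPM as deposited, and 10.4% and 7.95% after median-of-ratios scaling. Of 13 tubulin genes, 8 were higher and 1 lower in both scalings, with a median log2 fold change of 2.63. Tubb5 had 37.6 and 30.4 TPM in saline mice and 263 and 305 TPM in AP mice, and Tuba1c had 30.1 and 26.8 TPM against 205 and 224 TPM. Tuba3b went the other way, from 9.26 and 21.4 TPM to 3.96 and 3.54 TPM. Actn1, which cross-links actin, had 75.6 and 55.9 TPM in saline mice and 610 and 552 TPM in AP mice. Actb had 526 and 447 TPM against 1717 and 1585 TPM. As deposited, each of the 9 genes of the Arp2/3 actin nucleator was higher in every AP mouse than in any saline mouse. This held for 52.6% of all genes tested. Of the 9, 6 were called as deposited and 4 after scaling.

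Cathepsins, the proteases of the lysosome, some of which can activate trypsinogen, were called higher in 8 of 13 genes as deposited and 6 after scaling, with 1 (Ctsf) lower after scaling. The summed cathepsins made up 0.268% and 0.235% of TPM in saline mice and 1.56% and 1.48% in AP mice, mostly through Ctsl, with 1813 and 1482 TPM against 12970 and 11960 TPM. Ctsb had 255 and 209 TPM in saline mice and 908 and 885 TPM in AP mice, and Ctss, a cathepsin of macrophages, had 43.5 and 31.9 TPM against 232 and 286 TPM. The galectin gene Lgals3 had 4.92 and 6.95 TPM in saline mice and 165 and 167 TPM in AP mice (log2 fold change 4.71).

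The 11 tested protein-coding genes of the mitochondrial genome summed to 1.45% and 0.835% of TPM in saline mice and 0.765% and 0.608% in AP mice, with 1 called lower as deposited and 5 after scaling. The saline mice differed widely in them: mt-Nd4 had 636 and 182 TPM in saline mice and 203 and 144 TPM in AP mice.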
